A study of Mus musculus with 48 samples.

Results

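The genes described here are the interleukins and the receptors, binding proteins and antagonists named after them. They were found by name: a probe set, a group of short probes that together read 1 transcript, was kept when the platform's table gave it 1 gene symbol that begins with Il and goes straight on with a digit, and 1 gene of that name was left out. The rule found 44 genes among the 8251 that the arrays name, read by 52 probe sets. For the 6 genes with several probe sets, the set that is brightest on average over the 48 arrays stands for the gene, and the other sets are given where they differ. By role, the 44 members are 19 ligands, 20 receptor chains, 3 antagonists or binding proteins (Il1rn, Il18bp and Il1f5, an antagonist now named Il36rn) and 2 decoy receptors (Il1r2 and Il13ra2).

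Affymetrix arrays were hybridised with RNA from 48 samples, 1 array each, of mouse liver, heart, spleen and lung. The 16 groups combine these 4 tissues with 2 inbred mouse strains, A/J and C57BL/6J, and with 2 time points, called time 1 and time 2 in the labels, which do not say what the times refer to. Each group holds 3 biological replicates, and all were male littermates 3 months old. No transgene, deletion or treatment is named for any group, and neither the number of litters nor whether tissues came from the same mice is stated, so p-values measure only the spread between these animals.

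Values are on a log2 scale, so a difference of 1 is a 2-fold change, and each array's median lay between 8.865 and 9.016. Marker genes fitted the tissue labels: the mean of the hepatocyte list lay at 13.2 to 13.6 in liver and at no more than 10.3 elsewhere, that of the cardiomyocyte list at 13.8 to 14.1 in heart and at no more than 11.2 elsewhere, that of the lung epithelium list at 13.0 to 13.2 in lung and at no more than 11.1 elsewhere, and that of the B cell list at 11.1 to 11.8 in spleen and at no more than 9.87 elsewhere. In 5 of 12 spleen arrays, 2 of A/J and 3 of C57BL/6J replicates, the mean of 4 exocrine pancreas markers was above 11 (13.0 to 13.7), and in 1 C57BL/6J liver at time 2 it was 13.6. The arrays fall into 4 runs by the prefix of their scan file names. A/J and C57BL/6J samples of a tissue and time always lay in 1 run, all tissues at time 2 shared 1 run, and no tissue had both of its times in the same one.

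Interleukins are small secreted proteins with which immune and other cells signal to each other. Most act through receptors of 2 or more chains, and several chains are shared: Il6st (gp130) serves interleukins 6, 11 and 27, Csf2rb serves interleukins 3 and 5 and GM-CSF, its mouse relative Csf2rb2 serves interleukin 3, and Il10rb serves interleukin 10 and its relatives. Most of these receptors signal through Jak kinases and Stat factors, which induce the Socs inhibitors, whereas receptors of interleukins 1 and 18 signal through Myd88, Irak kinases and Traf6 to NF-kappaB. Antagonists and decoys bind a receptor or a ligand without passing on the signal. Most ligand genes are nearly silent in resting tissue, while lymphoid organs are known for a high content of receptor-bearing cells.

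Most members with a wide range over the 16 groups were receptors, whose share with such a range was near that of all probe sets. The range of the 16 group means, the highest minus the lowest, had a median of 0.66 over the 44 members, beside 0.88 over all 12422 probe sets that are not controls. It was 0.54 for the 19 ligands and 0.96 for the 20 receptors, a description with no test. It reached at least 1, a 2-fold change, in 12 members (27.3%, beside 43.5% of all probe sets), of which 9 were receptors and 3 were ligands. These are 45% of the receptors and 15.8% of the ligands. Only 4 of 19 ligands had a group mean above the median of all values (8.93), beside 12 of 20 receptors. The ligand ranges are thus largely those of dim probe sets. The widest ranges were those of Il18r1 (3.59), Il16 (3.17), Il7r (2.97), Il10rb (2.39), Il6st (1.87) and Il4ra (1.85), and the narrowest was that of Il2ra (0.27).

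**Figure D1:**
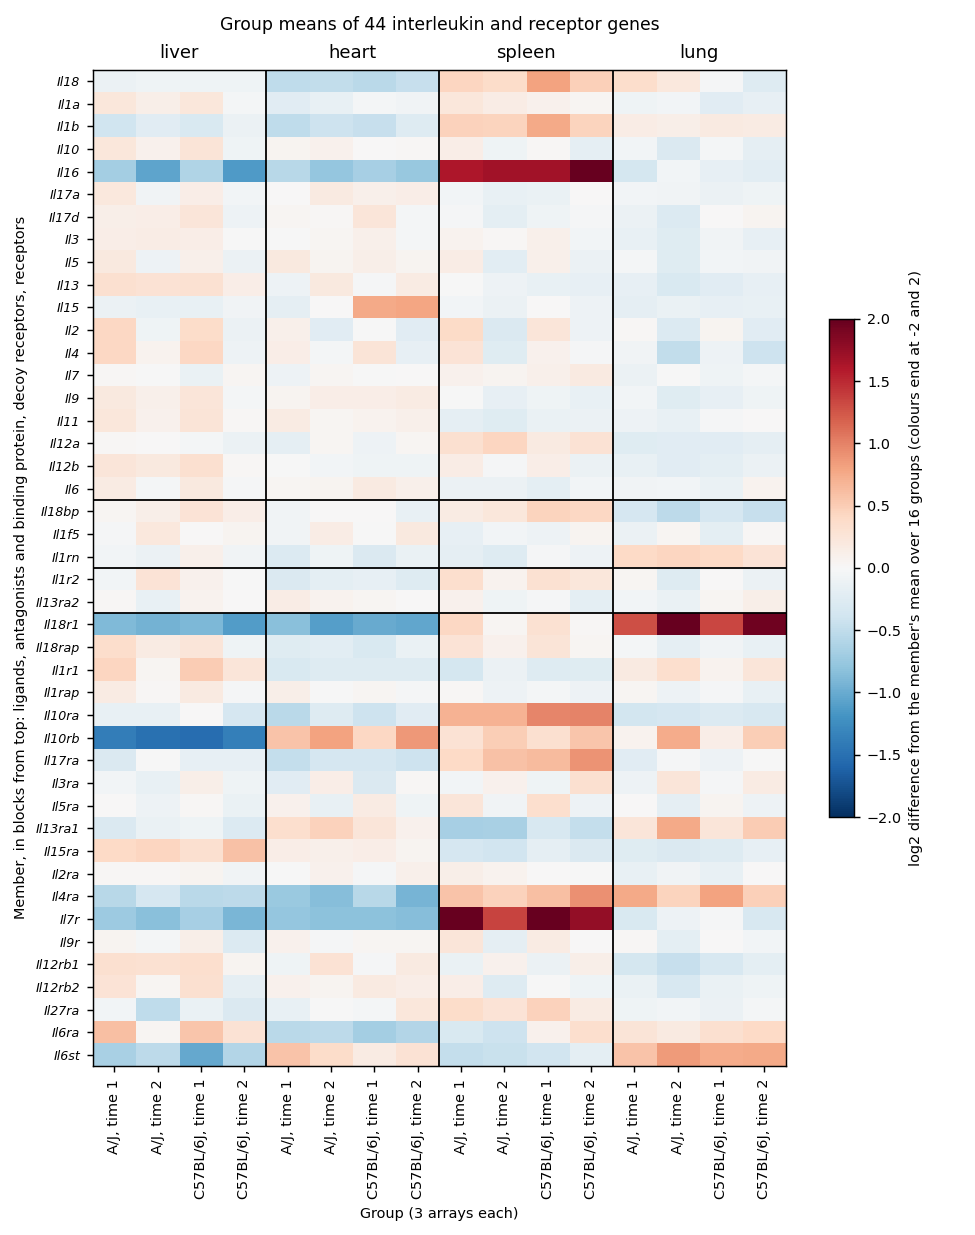
Heat map of the 44 members (rows, in blocks by role) in the 16 groups (columns, 3 arrays each). Colour is the group's mean log2 value minus the member's mean over all groups, red for higher and blue for lower. Il16, Il7r and Il10ra stand out in the spleen columns, Il18r1 in lung, Il10rb at its lowest in liver, and Il15 in the C57BL/6J heart columns alone.

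Tissues were compared at time 2, where all 24 arrays share a run, with limma, and p-values were adjusted by the Benjamini-Hochberg method across the 12422 probe sets. With a limit of 0.05 on the adjusted p, 17 of 44 members differed between liver and heart (51.6% of all probe sets did), 19 between liver and spleen (57.2%), 22 between liver and lung (61.6%), 28 between heart and spleen (63.0%), 26 between heart and lung (63.0%) and 21 between spleen and lung (48.2%). These shares were near those of all probe sets or below them. Il13ra1, Il16 and Il18bp differed in all 6 pairs of tissues, and 6 members (the ligands Il2 and Il17d and the receptors Il1rap, Il2ra, Il5ra and Il9r) differed in none.

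A member was called enriched in a tissue when it was at least 2-fold higher than in each of the other 3 tissues and passed the limit in all 3 comparisons. Spleen had 3 such members (3.53% of all probe sets were enriched there), lung 1 (2.25%), and liver and heart had 0 (4.11% and 2.51%).

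Among the ligands, Il16, which encodes a precursor that lymphocytes process to a chemoattractant of CD4-bearing cells, was the spleen-enriched one. Its 6 spleen arrays at time 2 ran from 10.58 to 11.47 with a median of 11.13, and its lung arrays from 8.98 to 9.33. Its heart arrays lay at 8.34 to 8.54 and its liver arrays at 8.04 to 8.28, so that no spleen array overlapped another tissue. Spleen stood 7.76-fold above liver (limma, adjusted p = 1.23e-18), 6.17-fold above heart (adjusted p = 2.26e-17) and 3.97-fold above lung (adjusted p = 9.80e-15). In bulk tissue, fewer cells of a type and less RNA per cell cannot be told apart. Il18 and Il1b, inflammatory ligands that are made as precursors and cut by caspase 1, were also highest in spleen but by less than 2-fold: Il18 had a median of 7.78 in spleen at time 2, 7.26 in liver, 7.25 in lung and 6.89 in heart, and Il1b of 8.33 in spleen, 7.90 in lung, 7.59 in liver and 7.48 in heart. Over both strains, Il18 did not differ between liver and lung at the limit (adjusted p = 0.607), but the direction depended on strain. In A/J the 3 lungs at time 2 (7.33 to 7.69) lay above the 3 livers (7.23 to 7.31). In C57BL/6J the 3 lungs (7.02 to 7.17) lay below the 3 livers (7.21 to 7.34). For Il1b, liver and heart did not differ at the limit (adjusted p = 0.273). Il12a, a subunit of interleukin 12, was 1.48-fold higher in spleen than in lung (adjusted p = 2.88e-07).

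Of the antagonists and binding proteins, Il18bp was highest in spleen and Il1rn in lung. Il18bp, a secreted protein that binds interleukin 18, was 1.76-fold higher in spleen than in lung (adjusted p = 9.15e-10) and had medians at time 2 of 9.74 in spleen, 9.52 in liver, 9.33 in heart and 8.84 in lung. Il1rn, which blocks the interleukin 1 receptor, was highest in lung, where its 6 arrays ran from 8.38 to 8.76. Lung exceeded spleen 1.45-fold (adjusted p = 1.73e-05), heart 1.37-fold (adjusted p = 8.72e-05) and liver 1.36-fold (adjusted p = 0.000127), while the last 3 did not differ from each other at the limit (adjusted p = 0.398 to 0.893). Il1f5 and the decoy Il13ra2 differed in 1 pair of tissues each, both higher in heart than in spleen (adjusted p = 0.0216 and 0.0202). The decoy Il1r2, which binds interleukin 1, differed in 4 pairs by its main probe set. It was higher in liver and in spleen than in heart and in lung, by 0.32 to 0.37 on the log2 scale. Its second probe set had means over both times of 7.25 in spleen, 7.09 in liver, 7.04 in heart and 7.02 in lung. By that set, liver thus lay close to heart and lung.

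Il7r, the receptor chain of interleukin 7 on lymphocytes and their precursors, had its 6 spleen arrays at 8.09 to 8.92 at time 2. Its lung arrays ran from 6.32 to 7.04, its liver arrays from 5.84 to 6.19 and its heart arrays from 5.81 to 6.16. Spleen exceeded liver 5.38-fold (adjusted p = 4.96e-15), heart 5.22-fold (adjusted p = 9.63e-15) and lung 3.39-fold (adjusted p = 5.99e-12), and lung in turn exceeded liver 1.59-fold (adjusted p = 4.03e-05). Il10ra, the ligand-binding chain for interleukin 10 on leukocytes, ran from 9.30 to 9.89 in spleen and from 8.36 to 8.75 in the other 3 tissues together, with no overlap. Spleen was 2.12-fold above liver, 2.11-fold above heart and 2.25-fold above lung (adjusted p = 8.44e-11, 9.69e-11 and 3.77e-11), and liver, heart and lung did not differ at the limit (adjusted p = 0.396 to 0.985). Its smallest difference, 1.08, lay just inside the rule, and in a fit of all 48 arrays it was 0.9956, just outside. Of the immune cell lists, those of T cells (9 genes, 8.85 to 9.27), B cells (7 genes, 11.1 to 11.8) and macrophages (10 genes, 11.1 to 11.9) were highest in spleen. So was the NK cell list (7 genes), at 7.91 to 8.54 there and 7.92 at most elsewhere. The neutrophil list (8 genes) lay at 9.38 to 10.95 in spleen and 9.30 to 10.51 in lung. The mast cell list (8 genes) lay at 7.89 to 8.20 in spleen and 8.03 to 8.25 in lung. Their part in these tissue differences was not tested.

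Il18r1, the chain that binds interleukin 18, was the lung-enriched member and had the widest range of all members. Over both times its 12 lung arrays ran from 9.42 to 10.94, its 12 spleen arrays from 8.25 to 8.88 and its 24 liver and heart arrays from 7.13 to 7.63, with no overlap between these 3 blocks. At time 2 lung was 9.72-fold above heart (adjusted p = 1.02e-16), 9.43-fold above liver (adjusted p = 5.47e-17) and 4.53-fold above spleen (adjusted p = 3.44e-13), and liver and heart did not differ at the limit (adjusted p = 0.801). The range over the 16 group means was 3.59 for Il18r1 and 0.66 for its partner chain Il18rap. Marker means in lung were at most 8.03 for T cells and 7.92 for NK cells, and the endothelial list (6 genes) was highest in lung, at 11.3 to 11.7, beside 10.1 to 10.3 in heart. The part of these cell types in the lung level of Il18r1 was not tested.

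**Figure D2:**
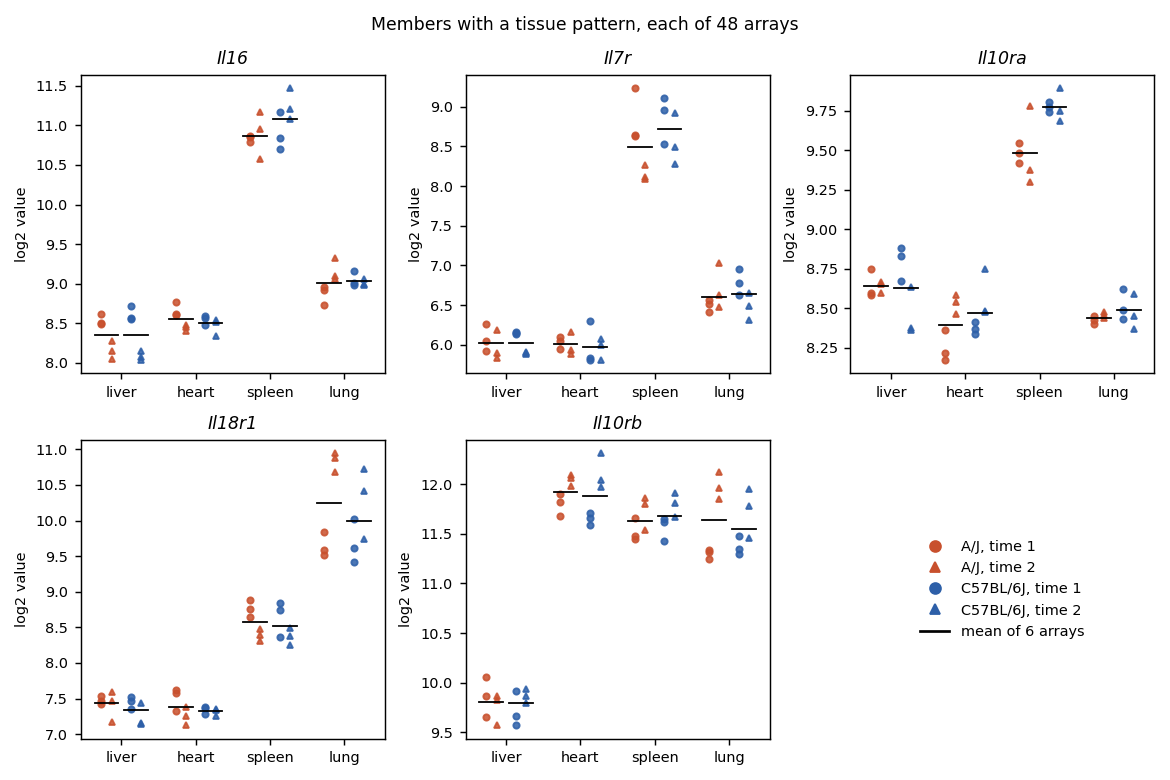
Log2 value of 5 members in each of the 48 arrays, by tissue. Colours are the strains, circles time 1, triangles time 2, and each black bar is the mean of the 6 arrays of a strain in a tissue. Spleen lies apart for Il16, Il7r and Il10ra, lung for Il18r1 (9.42 to 10.94), and liver lies below the rest for Il10rb.

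Upstream sequences were available for part of the members whose results are described, from RefSeq's table for GRCm38.p6. Of 11 members called for strain or enriched in a tissue, 8 had an entry and 7 had at least 150 bases that lie wholly before the gene. Il15, Il10ra and Il17ra had none. The 2 shown here belong to the lymphoid and the lung receptor with the widest tissue ranges, Il7r from chr15:9529942-9530126 (minus strand, 185 bases) and Il18r1 from chr1:40465302-40465551 (plus strand, 250 bases), each read 5′ to 3′ up to the gene, with a motif match in capitals.
Il7r: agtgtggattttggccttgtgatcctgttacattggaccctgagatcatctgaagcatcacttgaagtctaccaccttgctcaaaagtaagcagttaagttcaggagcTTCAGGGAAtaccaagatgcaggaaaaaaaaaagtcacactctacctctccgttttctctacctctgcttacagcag
Il18r1: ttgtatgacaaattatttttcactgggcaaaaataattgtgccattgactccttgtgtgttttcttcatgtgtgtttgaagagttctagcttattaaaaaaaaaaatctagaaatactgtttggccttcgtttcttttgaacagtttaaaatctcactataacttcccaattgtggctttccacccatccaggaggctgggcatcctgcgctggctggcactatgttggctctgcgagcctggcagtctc
The motifs searched on both strands were the STAT site GAS (TTCNNNGAA), the IRF and NF-kappaB sites by their names, a PU.1 type ETS site (GAGGAAG) and the RUNX site (TGTGGT). The Il7r stretch held 1 GAS match, whose pattern matches on both strands, as did 5.4% of 32851 promoter entries over the same length. The Il18r1 stretch held no match to any of the 5 motifs, of which GAS occurs in 7.0% of entries over 250 bases, and no match says only that these letters are not in this window.

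Other receptor chains had broader patterns. Il10rb, the chain shared by interleukin 10 and its relatives, was called lowest in liver by the mirror of the rule for enrichment, which was chosen after its values were seen (1.36% of all probe sets met it). Its 6 liver arrays at time 2 lay at 9.57 to 9.94 and the other 18 at 11.46 to 12.31. Heart exceeded liver 4.81-fold (adjusted p = 8.44e-17), lung 4.13-fold (adjusted p = 6.95e-16) and spleen 3.87-fold (adjusted p = 1.65e-15). Il4ra, the chain that binds interleukin 4, ran from 11.09 to 11.75 in spleen, from 10.91 to 11.44 in lung, from 10.13 to 10.44 in liver and from 9.78 to 9.95 in heart. Spleen and lung did not differ at the limit (adjusted p = 0.0658), and spleen was 2.98-fold above heart (adjusted p = 1.25e-12). A second Il4ra probe set did not repeat this order: its heart and spleen values differed by 0.03 (adjusted p = 0.822).

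Il6st, the signal-passing chain gp130, ran at time 2 from 11.14 to 11.63 in lung, from 10.84 to 11.19 in heart, from 9.88 to 10.57 in spleen and from 9.84 to 10.33 in liver, and lung was 2.57-fold above liver (adjusted p = 2.13e-11). Its second probe set went the other way, 1.51-fold higher in liver than in lung (adjusted p = 6.91e-05), so the tissue order of Il6st depends on the probe set. Il17ra, the receptor of interleukin 17A, was 2.18-fold higher in spleen than in heart by its main probe set (adjusted p = 3.00e-10) and 4.50-fold by the other (adjusted p = 2.36e-16). Il13ra1, which pairs with Il4ra, was lowest in spleen (7.19 to 7.63) and highest in lung (8.36 to 8.90), and spleen minus lung was -1.20 (adjusted p = 1.55e-10). Il15ra, which presents interleukin 15 to neighbouring cells, was highest in liver (10.95 to 11.30) and 1.79-fold above spleen (adjusted p = 8.26e-12), with spleen and lung indistinguishable at the limit (adjusted p = 0.164). Il6ra, the chain that binds interleukin 6, was lowest in heart (8.97 to 9.23), and liver and lung did not differ at the limit (adjusted p = 0.347). How far spleen lay above heart depended on strain. Group means of Il6ra in spleen and heart were 9.21 and 9.11 in A/J, and 9.96 and 9.05 in C57BL/6J.

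Strains were compared within each tissue over its 12 arrays, with time as an additive term, as A/J minus C57BL/6J. In liver 0 of 44 members differed by limma (4.07% of all probe sets did), and 2 had an unadjusted p below 0.05, as did 2011 of 12422 probe sets. In heart 1 member differed (7.48%, and 2.91% in its direction, lower in A/J). In spleen 5 did, all lower (12.7%, of which 6.05% higher and 6.67% lower), and in lung 2, 1 each way (5.22%, of which 2.70% higher and 2.52% lower). Read as shares, 2.27% of the members in heart, 11.4% in spleen and 4.55% in lung were called, each below the share of all probe sets, although the 11.4% lower in A/J spleens stood above the 6.67% of all probe sets in that direction. These 8 members are 3 ligands, 1 binding protein and 4 receptor chains, and each was called in 1 tissue. Of the 8, 7 were lower in A/J and 1, Il18 in lung, was higher. Only 2 members, Il15 and Il6ra, had a strain difference of at least 0.5 in size in any tissue, and the differences of the 36 members called nowhere lay between -0.24 and 0.25.

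**Figure D3:**
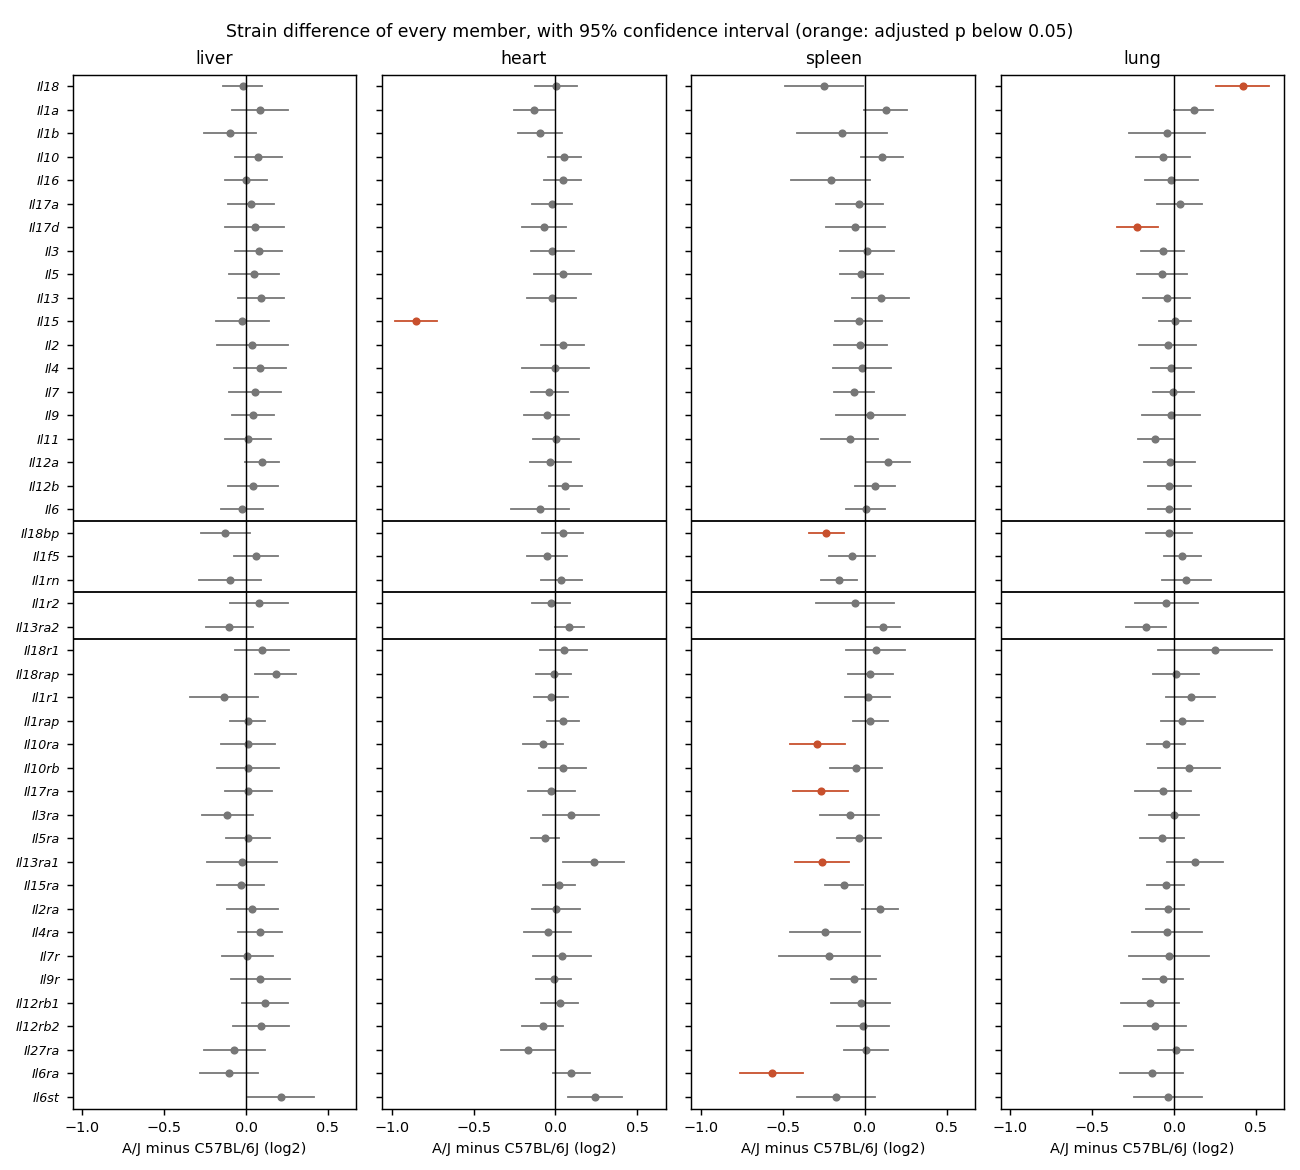
Strain difference of each member, A/J minus C57BL/6J on the log2 scale, in 4 tissues, with members in blocks by role. Points are the fitted differences over 12 arrays, lines their 95% confidence intervals, and orange marks an adjusted p below 0.05. Il15 in heart lies at -0.85, clear of every other member, and the spleen calls all lie below 0.

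Il15, a ligand that keeps NK cells and memory T cells alive and that is made by muscle and myeloid cells, had the largest strain difference of the members, and it lay in heart. The 3 A/J hearts at time 1 were at 5.34, 5.26 and 5.35 and those at time 2 at 5.51, 5.53 and 5.46. The C57BL/6J hearts were at 6.26, 6.21 and 6.25 at time 1 and at 6.30, 6.08 and 6.46 at time 2. The 6 C57BL/6J hearts were thus the highest of all arrays: the other 42 arrays, all tissues of both strains together, lay between 5.16 and 5.68. Il15 was the only member whose strains did not overlap in heart (3.06% of all probe sets did not). The difference was -0.85 (SE 0.060), a 1.81-fold lower value in A/J (limma, adjusted p = 4.99e-07), and it was called at time 1 alone (-0.92, adjusted p = 0.000147) and at time 2 alone (-0.78, adjusted p = 0.002). All these values lie low on the scale, which begins at 4.252, and Il15 did not pass a filter on dim probe sets, so whether the A/J hearts were above background is not known and the size of the fold is uncertain. In liver, spleen and lung the difference was -0.02, -0.04 and 0.01 with adjusted p of 0.919, 0.805 and 0.954.

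Other lists also moved between the heart groups. Of 10 macrophage markers 5 were lower in A/J hearts (list mean 9.39 to 9.69 in A/J and 9.65 to 9.95 in C57BL/6J), as were 1 of 5 lung epithelium, 1 of 6 erythroid and 1 of 6 cardiomyocyte markers, and 1 of 6 endothelial markers was higher. Il15 itself lay at 5.27 to 5.68 in spleen and at 5.27 to 5.40 in lung, low on the scale. In 2 of the 3 A/J hearts at time 1 the control probe sets at the 3′ end of Gapdh exceeded those at the 5′ end by 1.34 and 1.41, a measure of RNA quality, beside 0.10 in the third, and without them the Il15 difference was -0.85 (adjusted p = 2.60e-05). The part of these lists in the Il15 difference was not tested.

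Il18 was the 1 member higher in A/J. In lung the A/J arrays were at 7.87, 7.62 and 7.63 at time 1 and at 7.69, 7.65 and 7.33 at time 2. The C57BL/6J arrays were at 7.37, 7.18 and 7.43 and then at 7.09, 7.17 and 7.02, so the strains were apart within each time, and across times 1 A/J array of time 2 lay among the C57BL/6J arrays of time 1. The difference was 0.42 (SE 0.075), or 1.34-fold (adjusted p = 0.00408). It was called at time 2 alone (0.46, adjusted p = 0.0489) and was 0.38 at time 1 alone (adjusted p = 0.0803). In spleen Il18 lay the other way, at -0.25 (adjusted p = 0.185), and in liver and heart at -0.02 and 0.00. Of 8 neutrophil markers 3 were lower in A/J lungs, as were 2 of 7 NK cell markers, while 3 of 6 endothelial markers were higher and 1 lower, 1 of 10 macrophage markers was higher and 1 lower, and of 5 lung epithelium markers 0 were called. Their part in the Il18 difference was not tested.

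Il17d, a distant relative of interleukin 17A, was lower in A/J lungs, at 6.23, 6.21 and 6.33 at time 1 and 6.17, 6.02 and 6.11 at time 2. The C57BL/6J lungs were at 6.37, 6.34 and 6.41 and at 6.34, 6.52 and 6.44. No A/J array reached a C57BL/6J array, the only member of which this held in lung over both times (2.64% of all probe sets did not overlap there). The difference was small, -0.23 (SE 0.058, 1.17-fold, adjusted p = 0.0377), and its call was lost when any of 9 of the 12 arrays was left out, all but A/J time 1 replicate 3 and C57BL/6J time 1 replicates 1 and 2 (highest adjusted p 0.0912).

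In spleen all 5 called members were lower in A/J, 4 of them receptors. Over both times the strains did not overlap for 3 members, Il6ra, Il18bp and Il1rn (4.95% of all probe sets did not), and Il1rn was not called (-0.16, adjusted p = 0.058). Il6ra had the largest difference. The A/J spleens were at 9.41, 9.18 and 9.39 at time 1 and at 9.25, 9.02 and 9.35 at time 2, and the C57BL/6J spleens at 9.61, 9.63 and 9.90 and at 9.92, 9.93 and 10.03. Each A/J array lay below each C57BL/6J array. The difference was -0.57 (SE 0.090), 1.48-fold lower in A/J (adjusted p = 0.00105). At time 2 alone it was -0.75 (adjusted p = 0.00336) and at time 1 alone -0.39 (adjusted p = 0.0641), and the change between times did not pass the test (adjusted p = 0.217).

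Il18bp was at 9.61, 9.54 and 9.53 and then 9.56, 9.65 and 9.67 in A/J spleens, and between 9.80 and 9.87 in all 6 C57BL/6J spleens. The strains were apart at each time, by -0.24 (SE 0.049, 1.18-fold, adjusted p = 0.00608). Il10ra was at 9.42, 9.48, 9.54, 9.37, 9.30 and 9.78 in A/J and between 9.69 and 9.89 in C57BL/6J. One A/J array, replicate 3 of time 2, lay inside the C57BL/6J range, and the difference was -0.29 (SE 0.077, adjusted p = 0.0243). Its call was lost without A/J time 2 replicate 1 or 2, C57BL/6J time 1 replicate 2 or C57BL/6J time 2 replicate 1 (adjusted p of 0.0535 to 0.0596).

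Il17ra ran from 10.02 to 10.39 in A/J spleens with a median of 10.23, and from 10.26 to 10.81 in C57BL/6J spleens with a median of 10.45. Its difference was -0.27 (SE 0.077, adjusted p = 0.0344), and its other probe set gave -0.34 (adjusted p = 0.0152). Il13ra1 ran from 7.19 to 7.63 in A/J and from 7.51 to 7.83 in C57BL/6J, with a difference of -0.26 (SE 0.076, adjusted p = 0.038). For both receptors the strains overlapped in a few arrays. The Il17ra call of the main probe set held only without A/J time 1 replicate 1, C57BL/6J time 1 replicate 3 or C57BL/6J time 2 replicate 3, and that of Il13ra1 only without A/J time 2 replicate 1 or C57BL/6J time 2 replicate 1 (highest adjusted p 0.0808 and 0.0919). Il4ra, the partner of Il13ra1, was not called in spleen over both times (-0.24, adjusted p = 0.148). At time 2 alone it was called (-0.45, adjusted p = 0.032), with each A/J array below each C57BL/6J array, and at time 1 alone it stood at -0.03 (adjusted p = 0.899).

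Markers of several cell types moved with strain in spleen. Lower in A/J were 5 of 10 macrophage markers (list mean 11.1 to 11.3 in A/J and 11.6 to 11.9 in C57BL/6J), 3 of 7 NK cell markers (7.91 to 8.09 and 8.37 to 8.54) and 3 of 7 B cell markers (11.05 to 11.46 and 11.33 to 11.78). Higher in A/J were 5 of 6 erythroid markers (11.6 to 12.4 and 9.33 to 11.6) and 5 of 8 neutrophil markers (10.20 to 10.95 and 9.38 to 10.3), and of 9 T cell markers 0 were called. Also called were 2 of 8 mast cell and 1 of 5 hepatocyte markers, higher, and 1 of 6 endothelial and 1 of 6 cardiomyocyte markers, lower. At time 2 the hepatocyte list mean was 9.33 to 10.18 in A/J spleens and 8.04 to 8.94 in C57BL/6J spleens. Their part in the lower receptor values was not tested. Without the 5 spleen arrays with high pancreas markers, which leaves 4 A/J and 3 C57BL/6J arrays, 1 member, Il6ra, was called (2.88% of all probe sets), and the median difference of the 44 members went from -0.04 to -0.08. In these 7 arrays Il18bp stood at -0.24 (adjusted p = 0.244), Il10ra at -0.23 (adjusted p = 0.484), Il17ra at -0.30 (adjusted p = 0.180) and Il13ra1 at -0.25 (adjusted p = 0.405).

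**Figure D4:**
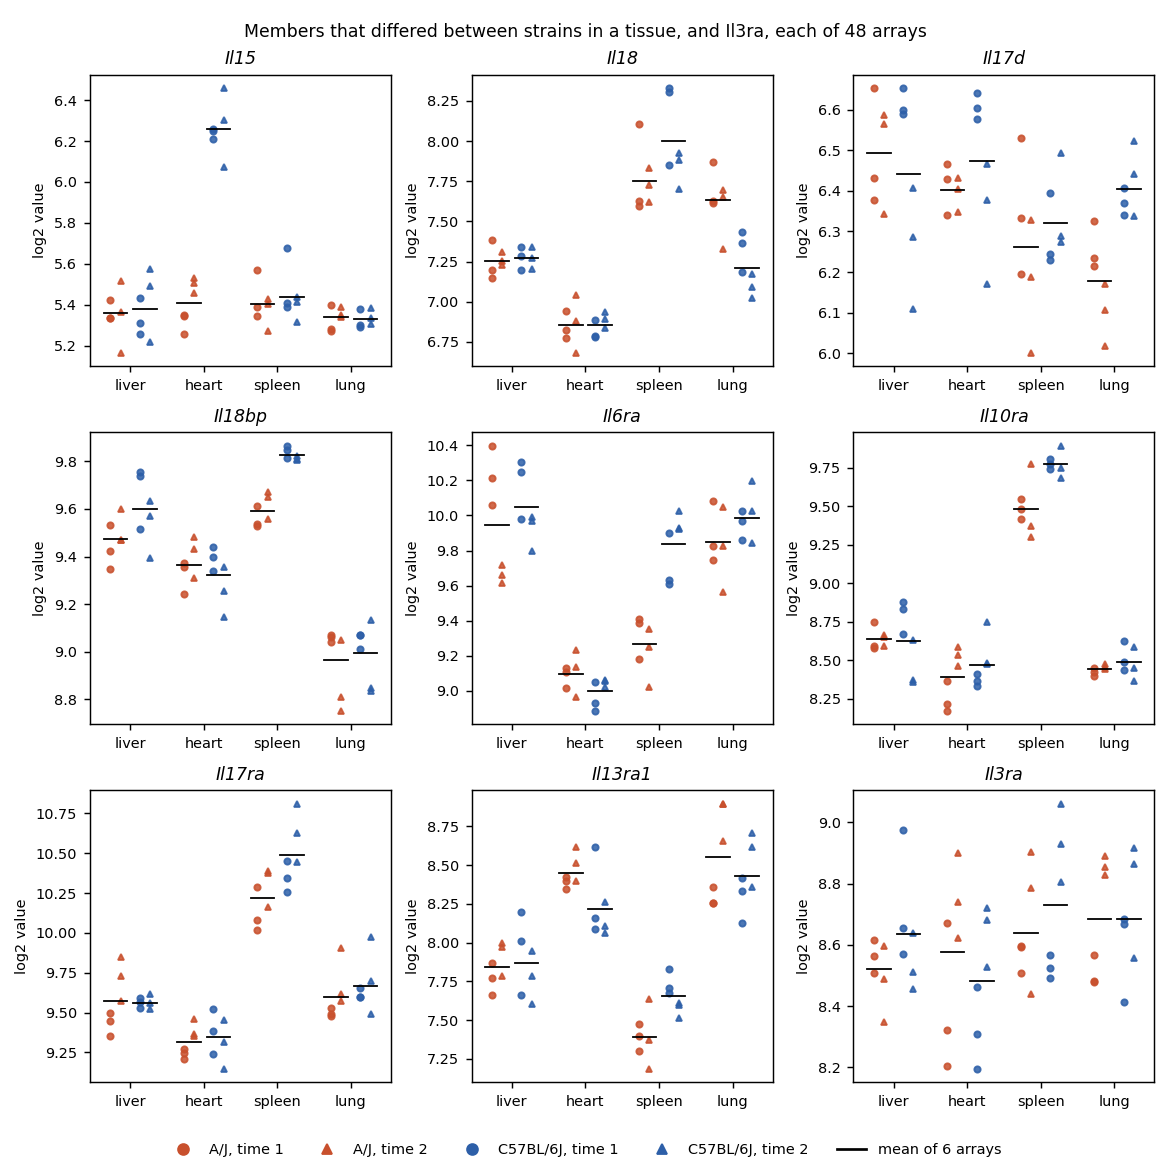
Log2 values of the 8 members called for strain in a tissue and of Il3ra, in each of the 48 arrays. Colours are the strains, circles time 1, triangles time 2, and black bars the mean of 6 arrays. The 6 C57BL/6J hearts lie at 6.08 to 6.46 for Il15 with all other arrays below 5.68, and Il3ra shows overlapping strains in every tissue.

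Upstream sequences of 2 of these members are shown because they carry the largest differences among the called members with an entry, Il6ra in spleen and Il18 in lung. The stretches are the 250 bases before each gene in GRCm38.p6, from chr3:89913197-89913446 on the minus strand and chr9:50554450-50554699 on the plus strand, printed as above.
Il6ra: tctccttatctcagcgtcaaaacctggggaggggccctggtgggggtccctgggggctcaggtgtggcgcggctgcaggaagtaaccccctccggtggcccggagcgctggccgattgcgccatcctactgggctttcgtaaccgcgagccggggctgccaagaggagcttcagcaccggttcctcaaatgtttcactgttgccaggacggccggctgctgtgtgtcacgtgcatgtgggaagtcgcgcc
Il18: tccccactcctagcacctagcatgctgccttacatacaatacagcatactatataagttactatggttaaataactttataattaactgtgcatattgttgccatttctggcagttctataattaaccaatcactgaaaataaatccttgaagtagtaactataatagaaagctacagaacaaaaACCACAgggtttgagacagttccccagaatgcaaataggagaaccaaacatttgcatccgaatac
The Il18 stretch held 1 RUNX match, on the opposite strand, as did 14.0% of promoter entries on either strand. The Il6ra stretch held none of the 5 motifs, and neither did those of Il13ra1, Il17d and Il18bp. These are the reference sequences, and whether A/J differs from them there is not known here.

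Il3ra, the ligand-binding chain of the interleukin 3 receptor, is a known strain difference: A/J carries an allele with a small deletion in an intron that disturbs splicing and weakens the response to interleukin 3. Its level was not called different between the strains in any tissue. In liver the A/J arrays were at 8.51, 8.62, 8.56, 8.49, 8.35 and 8.60 and the C57BL/6J arrays at 8.66, 8.57, 8.98, 8.51, 8.64 and 8.46, which overlap. The difference was -0.11 in liver (95% confidence interval -0.27 to 0.04, adjusted p = 0.490), 0.09 in heart (-0.08 to 0.26, adjusted p = 0.579), -0.09 in spleen (-0.27 to 0.09, adjusted p = 0.580) and 0.00 in lung (-0.15 to 0.15, adjusted p = 0.999). Across tissues at time 2, Il3ra had medians of 8.50 in liver, 8.70 in heart, 8.85 in spleen and 8.86 in lung, and liver was lower than spleen (-0.31, adjusted p = 0.00323) and than lung (-0.31, adjusted p = 0.00331), while the other 4 pairs did not pass the limit. A probe set gives 1 level per gene, and where its probes lie relative to the affected exon is not known here.

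The strain difference was also tested for being unequal across the 4 tissues, with an F test over all 48 arrays. It was unequal for 5 of 44 members, 11.4%, beside 18.5% of all probe sets. The members are Il15 (adjusted p = 8.77e-11), Il18 (adjusted p = 0.000205), Il6ra (adjusted p = 0.000321), Il13ra2 (adjusted p = 0.00336) and Il13ra1 (adjusted p = 0.0202). Il13ra1 was lower in A/J spleens and had a difference of 0.23 in heart (adjusted p = 0.133). Il13ra2, a decoy that binds interleukin 13, lay near the low end of the scale everywhere, at 5.67 to 6.19, and its differences of -0.10 in liver, 0.09 in heart, 0.11 in spleen and -0.17 in lung passed the test in none of the tissues alone. No member was called for a strain difference that changed between the times (limma, 0 of 44 in each tissue). Of all probe sets 4.90% were called in liver, 0.386% in heart, 0.209% in spleen and 0.177% in lung. An unadjusted p below 0.05 was seen for 5 members in liver (2986 of 12422 probe sets), 4 in heart (1323), 6 in spleen (2430) and 3 in lung (2232), in each tissue a smaller share of the members than of all probe sets.

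Partners of these receptors were read from a list of 54 shared chains and signalling genes, of which 36 were measured. The list was chosen with earlier results of these data known, so its shares beside those of all probe sets are descriptions only. In spleen 13 of 36 (36.1%) were lower in A/J and 0 higher, where 6.67% of all probe sets were lower and 6.05% higher. Csf2rb2 (-0.54, adjusted p = 0.000491) and Csf2rb (-0.50, adjusted p = 0.0013), the chains that carry the signal of interleukins 3 and 5, fell, as did Csf2ra (-0.42, adjusted p = 0.00154), the chain for GM-CSF. Jak3, the kinase of the common gamma chain, was at -0.56 (adjusted p = 0.000564), Nfkb2 at -0.47 (adjusted p = 0.00114) and Stat3, which interleukins 6 and 10 activate, at -0.33 (adjusted p = 0.00123). Csf2rb and Csf2ra were picked after their values were seen, and Csf2rb and Csf2rb2 are close copies whose probe sets may share signal. The ligand-binding chains that pair with Csf2rb, Il3ra and Il5ra, were not called in spleen, with differences of -0.09 and -0.04 (adjusted p = 0.580 and 0.808). A second Csf2rb2 probe set gave 0.03 in spleen and -0.13 in lung and was called in neither. The same cell type markers as above moved with these genes, and without the 5 arrays with pancreas markers 0 of 36 partners were called, with 30 of 36 below 0 and a median of -0.16, beside -0.17 in all arrays.

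In the other tissues fewer partners were called. In liver 3 of 36 (8.33%, beside 4.07% of all probe sets) were higher in A/J: Lifr (0.36, adjusted p = 0.00949), which pairs with Il6st to bind LIF, Tab2 (0.32, adjusted p = 0.00465) and Stat5a (0.29, adjusted p = 0.00537). In heart 3 of 36 were called (8.33%, beside 7.48%): Socs2, a Socs inhibitor (-0.52, adjusted p = 0.00183) and Traf6 (-0.28, adjusted p = 0.0117) were lower and Tollip (0.21, adjusted p = 0.0324) higher. In lung 1 of 36 was called (2.78%, beside 5.22%): Csf2rb2 was higher in A/J, by 0.32 (adjusted p = 0.00503), the opposite of its spleen difference. The strain difference of Csf2rb2 was unequal across tissues (F test, adjusted p = 1.63e-08), as was that of 13 of 36 partners in all.

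Time 2 was compared with time 1 within each tissue, with strain as an additive term, and this difference cannot be told apart from that between array runs. In liver 17 of 44 members changed (50.3% of all probe sets), 1 up and 16 down (20.2% and 30.1%). In heart 13 did (34.9%), 8 up and 5 down (15.7% and 19.3%). In spleen 16 did (31.9%), 3 up and 13 down (13.0% and 18.9%), and in lung 9 (34.7%), 5 up and 4 down (15.8% and 18.9%). In liver, where 16 members were lower, 7 of 7 B cell, 5 of 8 neutrophil, 3 of 7 NK cell and 3 of 5 lung epithelium markers were lower as well. Of 8 mast cell markers 4 were lower and 1 higher, of 6 erythroid markers 4 and 1, and of 9 T cell markers 3 and 2. Higher were 4 of 10 macrophage, 1 of 5 hepatocyte, 1 of 4 pancreas and 1 of 6 endothelial markers. Of 6 cardiomyocyte markers 1 was higher and 1 lower. The part of these lists in the member changes was not tested. After quantile normalization the liver split was 5 up and 10 down and the lung split 6 up and 3 down. As shares, 38.6% of the members changed in liver, 29.5% in heart, 36.4% in spleen and 20.5% in lung. The spleen count was 10 with a replicate block, and the lung count was 18 without C57BL/6J time 2 replicate 2, so nothing is read from these shares against those of all probe sets. Over the 4 tissues 12 members were higher at time 2 in at least 1, 22 were lower in at least 1, and 11 were called in none. The 1 member that did both, Il18r1, was higher in lung and lower in spleen. Such counts over the 4 tissues were not made for all probe sets. Among all probe sets more were called lower than higher in each tissue, so nothing is read from 22 against 12.

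Among the ligands, Il2, the T cell growth factor, and Il4, which drives B cell class switching and type 2 responses, were lower at time 2 in all 4 tissues. Both lay low on the scale, with group means of 5.68 to 6.38 for Il2 and 6.26 to 7.17 for Il4. Neither passed the filter on dim probe sets, so whether they were above background is not known. In spleen Il2 was at 6.38, 6.32 and 6.35 in A/J at time 1 and at 5.76, 5.68 and 5.60 at time 2, and at 6.09, 6.24 and 6.31 and then 5.73, 5.97 and 5.91 in C57BL/6J. No array of time 2 reached one of time 1. The change was -0.51 in spleen (SE 0.075, adjusted p = 0.000543), -0.49 in liver (adjusted p = 0.00151), -0.29 in lung (adjusted p = 0.0129) and -0.27 in heart (adjusted p = 0.0041). Il4 changed by -0.43 in liver (adjusted p = 0.000411), -0.36 in lung (adjusted p = 0.000525), -0.31 in spleen (adjusted p = 0.0125) and -0.29 in heart (adjusted p = 0.0296). Of its 3 other probe sets 1 was also lower in all 4 tissues and 1 was lower in none. Il16 fell in liver by 0.45 (adjusted p = 6.57e-05), from 8.50 to 8.72 at time 1 to 8.04 to 8.28 at time 2, and Il5, the eosinophil growth factor, fell in spleen by 0.29 (adjusted p = 0.00372). Il5 did not pass the filter on dim probe sets either.

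Receptors moved in both directions. Il18r1 had the largest change of the members, 0.90 higher in lung at time 2 (SE 0.16, 1.86-fold, adjusted p = 0.00118). Its A/J lungs went from 9.52, 9.84 and 9.58 to 10.94, 10.68 and 10.87 and its C57BL/6J lungs from 10.02, 9.42 and 9.62 to 10.72, 9.74 and 10.42. The A/J times were apart, while 1 C57BL/6J array of time 2, replicate 2, lay inside its time 1 range. The strains' changes did not differ at the limit (0.58, adjusted p = 0.307). In lung 5 of 5 hepatocyte, 4 of 4 pancreas and 1 of 10 macrophage markers were lower at time 2. Higher were 3 of 6 endothelial, 3 of 5 lung epithelium, 1 of 9 T cell and 1 of 6 cardiomyocyte markers. Of 8 neutrophil markers 4 were lower and 1 higher, of 7 NK cell markers 2 and 1, and of 8 mast cell markers 1 and 1. The 3′ minus 5′ difference of Gapdh, the measure of RNA quality, was also higher at time 2, at 0.64 to 1.08 in the lungs of time 1, 1.05 to 1.37 in C57BL/6J lungs of time 2 and 1.36 to 1.96 in A/J lungs of time 2. The part of these in the Il18r1 change was not tested.

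Il10rb was higher at time 2 in lung by 0.52 (adjusted p = 0.000846), in heart by 0.35 (adjusted p = 0.0015) and in spleen by 0.22 (adjusted p = 0.0382). Il3ra was higher in the same 3 tissues, by 0.34 in heart (adjusted p = 0.00527), 0.27 in spleen (adjusted p = 0.025) and 0.27 in lung (adjusted p = 0.0111), and Il13ra1 was higher in lung by 0.40 (adjusted p = 0.00239). Il5ra, the interleukin 5 binding chain, went down in spleen (-0.37, adjusted p = 0.00108), heart (-0.24, adjusted p = 0.000601) and lung (-0.17, adjusted p = 0.0492). Its hearts lay at 5.06 to 5.22 at time 1 and at 4.87 to 4.99 at time 2, near the bottom of the scale, which begins at 4.252. In liver Il6ra went down (-0.41, adjusted p = 0.00124), and in spleen Il9r went down (-0.29, adjusted p = 0.00487). Il12rb1, a chain of the receptors of interleukins 12 and 23, was higher in heart at time 2 by its main probe set (0.29, adjusted p = 0.00115) and lower by its other one (-0.20, adjusted p = 0.00535), so its direction depends on the probe set.

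**Figure D5:**
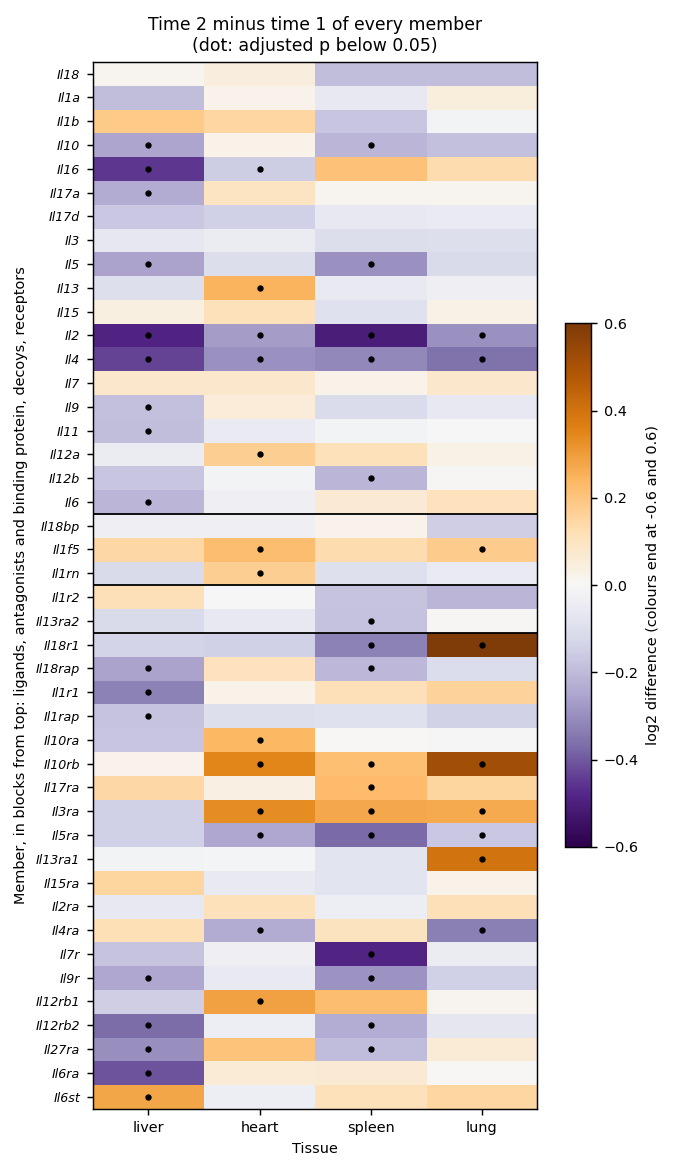
Heat map of time 2 minus time 1 (log2) for the 44 members (rows, in blocks by role) in 4 tissues (columns). Orange is higher and purple lower at time 2, and a dot marks an adjusted p below 0.05. Il2 and Il4 are purple with a dot in all 4 columns, Il18r1 reaches 0.90 in lung, and the liver column holds 16 lower calls and 1 higher.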

How the data were processed

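Each of 48 samples was read on 1 array. The authors deposited log2 values (4.252 to 14.72), which were used as they stand. Their normalization method is not stated in the labels. Of 12488 probe sets, 66 controls were left out. Symbols came from the platform's probe table (1 symbol for 10833 probe sets), and all 44 members matched the gene table of GRCm38.p6. A further gene of this family is not reported here. The members, the partner list and the cell type lists were chosen with earlier results of these data known. Tests used limma 3.58.1 in R 4.3.3 (lmFit and eBayes) with the Benjamini-Hochberg adjustment over 12422 probe sets, and were tested on simulated data. Values were named for Il3ra, for members called for strain, for strain by time or for strain by tissue, for members enriched in a tissue, for the 4 members per tissue with the smallest p for time, and for up to 4 partners per tissue. Other members with broad tissue patterns were chosen after their values were seen. Alternatives were quantile normalization, a filter on dim probe sets, the mean over probe sets, a block for the replicate number, 1 fit of all arrays, single times and the removal of arrays. Precision is limited by the number of arrays. Same-numbered samples did not regularly deviate together, so the numbers were not taken as pairs. The median correlation was -0.026 for pairs of strains, 0.033 for pairs of times and -0.0051 for pairs of tissues at time 2. Correlations were over 0.1 in 7 of 24, 8 of 24 and 8 of 36 pairs, with a highest of 0.46 for a pair of times.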

Additional observations from a re-analysis of the deposited data

Results flagged for a closer look

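The test of the strain difference across tissues named 5 members whose A/J minus C57BL/6J difference is not the same in liver, heart, spleen and lung. Il15 (adjusted p = 8.77e-11) was lower in A/J hearts by 0.85 on the log2 scale (-0.85) and within 0.04 of equal in the other tissues. Il18 (adjusted p = 0.000205) was higher in A/J lungs (0.42) and at -0.25 in spleen. Il6ra (adjusted p = 0.000321) was lower in A/J spleens (-0.57), with differences of -0.10 in liver, 0.10 in heart and -0.14 in lung. Il13ra2 (adjusted p = 0.00336) lay at 0.09 and 0.11 in heart and spleen and at -0.10 and -0.17 in liver and lung. Il13ra1 (adjusted p = 0.0202) lay at 0.23 in heart and -0.26 in spleen.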

How the results depend on the processing

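No called value of a named member changed direction under any alternative run. The strain difference of Il3ra, which was called in no tissue, did change sign. In spleen it was -0.09 over both times and 0.04 at time 1 alone. Of 193 values of named members under alternatives other than leaving out an array, 173 kept their side of the limit and 20 lost the call. A filter on dim probe sets left 11 to 17 members to test. It gave 6 calls for time in liver, 4 in heart, 5 in spleen and 3 in lung, 0 for strain in heart and in lung (Il15, Il17d and Il18 were not tested), and 2 for strain by tissue. A replicate block gave 3 calls for strain in spleen (Il10ra, Il18bp and Il6ra), 1 for strain in lung (Il18) and 10 for time in spleen. It changed no other count by more than 1.5 times. Time 1 alone gave strain counts of 2 in heart, 3 in spleen and 0 in lung, and time 2 alone 2, 2 and 1. Heart had 2 calls without the 2 A/J hearts with a high Gapdh 3′ signal, spleen 1 call without the arrays with pancreas markers, and the partners then 0, an alternative chosen after seeing the data. Leaving out each array in turn gave strain counts of 0 to 1 in liver, 1 to 2 in heart, 2 to 5 in spleen and 1 to 2 in lung. The liver call, of Il18rap, came without A/J time 1 replicate 1. The second heart call came without A/J time 2 replicate 2 (Il6st) or C57BL/6J time 1 replicate 3 (Il13ra1). Time counts were 15 to 21 in liver, 9 to 14 in heart, 12 to 15 in spleen and 7 to 18 in lung, the 18 without C57BL/6J time 2 replicate 2. Strain by time gave 0 to 2 in liver (1 without A/J time 1 replicate 3, 2 without A/J time 2 replicate 2) and 0 elsewhere, strain by tissue 5 to 7, and the enriched counts did not move. With the mean over probe sets, Il12rb1 in heart was 0.04 higher at time 2 (adjusted p = 0.470).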

Other observations

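The arrays also hold control probe sets that carry the names of mouse Il2, Il4 and Il10, which were left out of all comparisons. Over the 48 arrays they lay between 8.40 and 9.01 for Il2, 5.79 and 6.39 for Il4 and 7.34 and 8.16 for Il10.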
